A study of Mus musculus with 9 samples.

Results

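The plexins and neuropilins, the receptors that read semaphorin guidance cues, were followed across the cells of the developing mouse neocortex and between genotypes. The set was defined by name and comprised 10 genes, Nrp1, Nrp2, Plxna1, Plxna2, Plxna3, Plxna4, Plxnb1, Plxnb2, Plxnc1 and Plxnd1, of 17487 genes listed in at least 1 of 9 libraries. All 10 were listed in every library, with between 661 (Plxnd1) and 12586 (Nrp1) unique molecular identifiers (UMIs, tags that count individual RNA molecules) over all cells kept. The libraries were single cell 3′ RNA libraries of neocortices dissected at E18.5 (E, embryonic day) from littermates of the Tcf4ex4WT/lacZ line. Of these, 5 were labelled wildtype (WT1 to WT5) and 4 Tcf4 knockout (KO1, KO2, KO4 and KO5). No treatment was given, and each library was prepared from 1 embryo, so the library was the replicate. The knockout is a lacZ/neomycin cassette inserted before exon 4 of Tcf4 in both copies, in all cells of the embryo. A shorter TCF4 isoform persists in it, according to the study. The genotype comparison used WT2, WT3 and WT4 against KO4 and KO5, the animals that the rules in the study's methods leave. Those rules leave out animals with few cells and a WT animal whose Tcf4 was below that of the KO.

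As background, neuropilins bind class 3 semaphorins and forms of VEGF outside the cell but have only a short intracellular tail, so they signal through partners. Class A plexins are the usual partners: they carry an intracellular GTPase-activating domain through which semaphorin binding collapses or steers the growth cone. B plexins are receptors for transmembrane class 4 semaphorins, Plxnc1 for Sema7a, and Plxnd1 for Sema3e, best known from blood vessels. In the neocortex these receptors take part in radial migration, layering and the routing of callosal and corticofugal axons. Tcf4 encodes a basic helix-loop-helix transcription factor that binds E-box sequences (CANNTG).

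After filtering, 118 to 6173 cells per library were kept. A limit of 1% haemoglobin RNA, set here, removed 5, 22 and 35 cells of WT2, WT3 and WT4 but 677 of KO4 and 1561 of KO5. The study's methods also left out cells with much RNA of blood genes, but state no limit. The kept cells had medians of 2217 to 4359 UMIs. Cells were assigned to 13 classes, beside 13 fibroblast cells that were not used, by the summed evidence of marker genes that included no plexin, neuropilin, semaphorin or other gene of the pathway. In each class at least 4 markers were more than 1.5-fold above the other classes, and own markers were among the 10 leading genes in every class. The share of cells left unassigned was 23.0% to 35.6% in WT2, WT3 and WT4 but 80.0% in KO4, 91.6% in KO5 and 92.6% in WT5. In those last libraries haemoglobin RNA was also higher, at medians of 0.181%, 0.665% and 0.350% of the UMIs of deep layer neurons against 0.0416% to 0.0759% in WT2 to WT4. Libraries shared at most 46 cell barcodes. Tcf4 itself, counted at its 3′ end and so also from starts past the insertion, measured 12.2, 12.6 and 12.2 UMIs per 10000 in WT2, WT3 and WT4, against 9.29 in KO4 and 7.59 in KO5 (exact 2-sided permutation p = 0.1, the smallest this design allows). The library labelled WT5 measured 7.20 and the library labelled KO1 16.7, both against their labels, and WT1 measured 4.65 over 126 cells. WT5 was taken as the WT animal that the study left out for low Tcf4. The Tcf4 separation of the groups compared was therefore partly fixed by that choice, and its p-value is no check of the labels. Over all 9 libraries as labelled the KO mean was higher by 0.901 (exact permutation p = 0.762).

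Levels below are means over the cells of a class of UMIs per 10000 UMIs of the cell, given per library with at least 10 cells of the class. Orders of classes refer to WT2, WT3 and WT4, and 2 classes are called separate where every one of these libraries was higher in one than any in the other. Of the 13 classes, mural cells and microglia reached 10 cells only in WT4 among these and were left out of the orders. UMI levels of different genes were not set against each other.

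**Figure D1:**
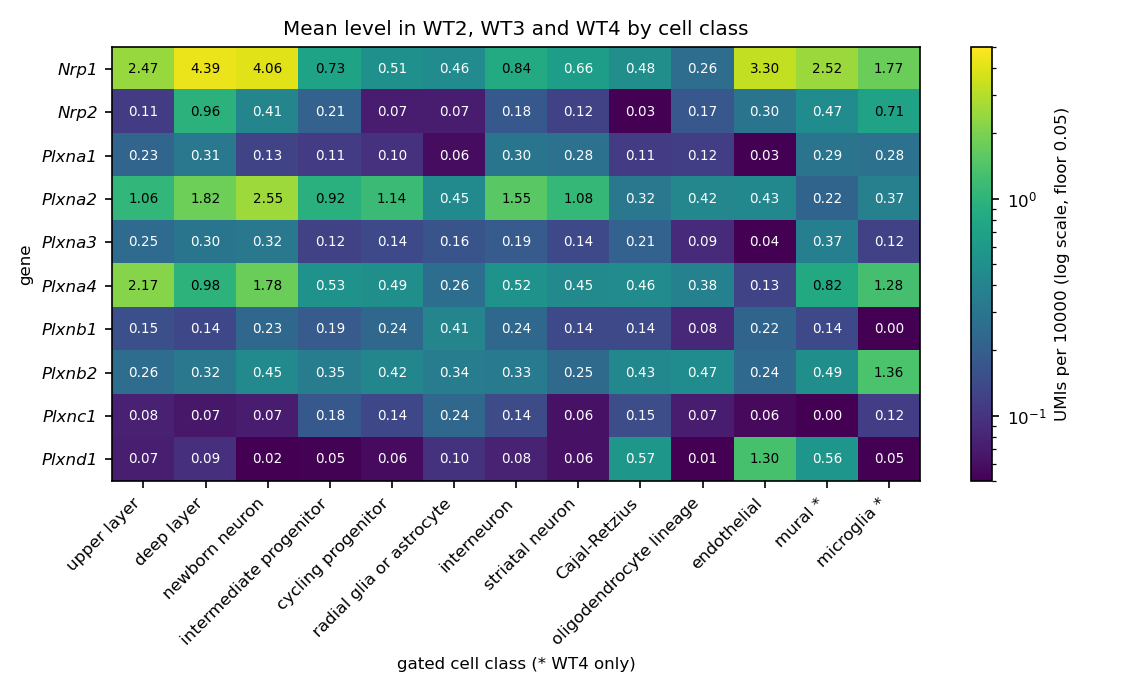
Mean level of each gene (rows) in each gated cell class (columns) as UMIs per 10000, over the libraries among WT2, WT3 and WT4 with at least 10 cells of the class; colour is on a log scale and values under 0.05 take the lowest colour. Nrp1 reached 4.39 in deep layer and 3.30 in endothelial cells, Plxnd1 reached 1.30 in endothelial cells, and Plxna4 2.17 in upper layer neurons.

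Nrp1, the receptor for Sema3a and for VEGF-A, was highest in deep layer neurons (4.39 ± 1.23 UMIs per 10000, SD, n = 3), followed by newborn neurons (4.06 ± 0.455), endothelial cells (3.30 ± 0.708) and upper layer neurons (2.47 ± 0.873). These 4 neighbours overlapped in order. Upper layer neurons were separate from interneurons, the next class (0.841 ± 0.352), and oligodendrocyte lineage cells were lowest (0.261 ± 0.127), a 16.8-fold span. In deep layer neurons of WT2, WT3 and WT4, 61.1%, 71.8% and 43.3% of cells held an Nrp1 UMI. In oligodendrocyte lineage cells, the class with the lowest level, 13.6%, 3.23% and 10.7% did. With each cell thinned to 1800 UMIs the deep layer shares were 51.9%, 41.0% and 28.5% and the oligodendrocyte lineage shares 9.09%, 3.23% and 6.0%. Mural cells and microglia of WT4 measured 2.52 and 1.77.

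Nrp2, the receptor for Sema3f and VEGF-C, also had its highest mean in deep layer neurons, at 0.803, 0.547 and 1.53 in WT2, WT3 and WT4. Newborn neurons followed at 0.514, 0.0800 and 0.635 and upper layer neurons ranked low at 0.0554, 0.0773 and 0.208. No neighbouring classes were separate in its order. In Cajal-Retzius cells, the lowest class, it gave 1 UMI in WT2, 0 in WT3 and 1 in WT4.

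The class A plexins, the signalling partners of neuropilins and receptors for class 6 semaphorins, differed in where they were high. Plxna2, a receptor for Sema6a, was highest in newborn neurons (2.41, 2.17 and 3.07 in WT2, WT3 and WT4), followed by deep layer neurons (1.77, 1.38 and 2.32) and interneurons (1.81, 1.38 and 1.44). Interneurons were separate from cycling progenitors (1.14 ± 0.199), and intermediate progenitors (0.922 ± 0.184) from radial glia or astrocytes (0.449 ± 0.0365). Plxna4, which pairs with Nrp1 for Sema3a, was highest in upper layer neurons (2.07, 1.67 and 2.76), then newborn neurons (1.07, 1.54 and 2.74) and deep layer neurons (1.03, 0.666 and 1.25), with a 16.9-fold span down to endothelial cells (0.128 ± 0.124), and no step between neighbours was separate. Plxna1 lay at 0.0309 to 0.314 and Plxna3 at 0.0427 to 0.316 in the 11 ordered classes. Both were lowest in endothelial cells, where WT2 and WT3 gave no UMI, and no step was separate. Plxna1 was highest in deep layer neurons (0.314 ± 0.187) and Plxna3 in newborn neurons (0.316 ± 0.0734).

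Of the B, C and D plexins, Plxnb1 had its highest mean in radial glia or astrocytes (0.382, 0.307 and 0.534), and Plxnb2, a Sema4 receptor known in neural progenitors, ran flat, with a 1.93-fold span over the ordered classes. No step was separate in the order of either gene. In the microglia of WT4 Plxnb2 measured 1.36 (23 UMIs in 47 cells), above every ordered class mean, while Plxnb1 gave no UMI. Plxnc1 was highest in radial glia or astrocytes (0.119, 0.210 and 0.380), and only cycling progenitors and upper layer neurons were separate neighbours in its order, at 0.102 and 0.0987 on their facing sides. Plxnd1 was marked by steps between its leading classes. Endothelial cells measured 1.50, 1.15 and 1.25, Cajal-Retzius cells 0.836, 0.351 and 0.528, and radial glia or astrocytes, the third class, 0.214, 0.0293 and 0.0517. Endothelial cells were separate from Cajal-Retzius cells and these from the third class. Mural cells of WT4 measured 0.560. A Plxnd1 UMI was found in 41.2%, 40.0% and 48.0% of endothelial cells and in 3.15%, 1.47% and 3.69% of upper layer neurons, at median depths of 3696 to 4956 and 2488 to 5531 UMIs per cell.

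The order of classes was then tested within libraries, for 5 pairs of classes, with every library of either label that held at least 10 cells of both classes and the library as a block. limma was used on log2(UMIs per 10000 + 1), so that differences of low genes are understated, with Benjamini-Hochberg adjustment over all genes tested. Libraries of both genotypes enter and the genotype label is not used.

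Between upper and deep layer neurons 2 of 10 members passed, where 0.867% of all genes tested did. Plxna4 was higher in upper layer neurons in 6 of 6 libraries, at 2.07, 1.67, 2.76 and 0.919 in WT2 to WT5 and 2.03 and 1.22 in KO4 and KO5, against 1.03, 0.666, 1.25, 0.474, 1.13 and 1.11 in deep layer neurons (log2 difference 0.50 ± 0.09 SE, limma adjusted p = 0.00302). Nrp2 was higher in deep layer neurons in 6 of 6 libraries, at 0.803, 0.547, 1.53, 1.18, 0.281 and 0.517 against 0.0554, 0.0773, 0.208, 0.376, 0.0479 and 0.0979 (upper minus deep −0.63 ± 0.09, adjusted p = 8.44e-05). The lowest deep layer value of Nrp2 lay under the highest upper layer value, of WT5, but not within any library. Nrp1 and Plxna2 were lower in upper layer neurons in 5 of 6 libraries and did not pass (−0.31 ± 0.12, adjusted p = 0.391, and −0.33 ± 0.09, adjusted p = 0.153). edgeR's quasi-likelihood test on UMI sums called both (adjusted p = 1.87e-08 and 1.28e-07). With a stricter gate the Plxna4 difference fell to 0.21 (adjusted p = 0.669), and without the filter on low genes neither Plxna4 (adjusted p = 0.547) nor Nrp2 (adjusted p = 0.411) passed.

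**Figure D2:**
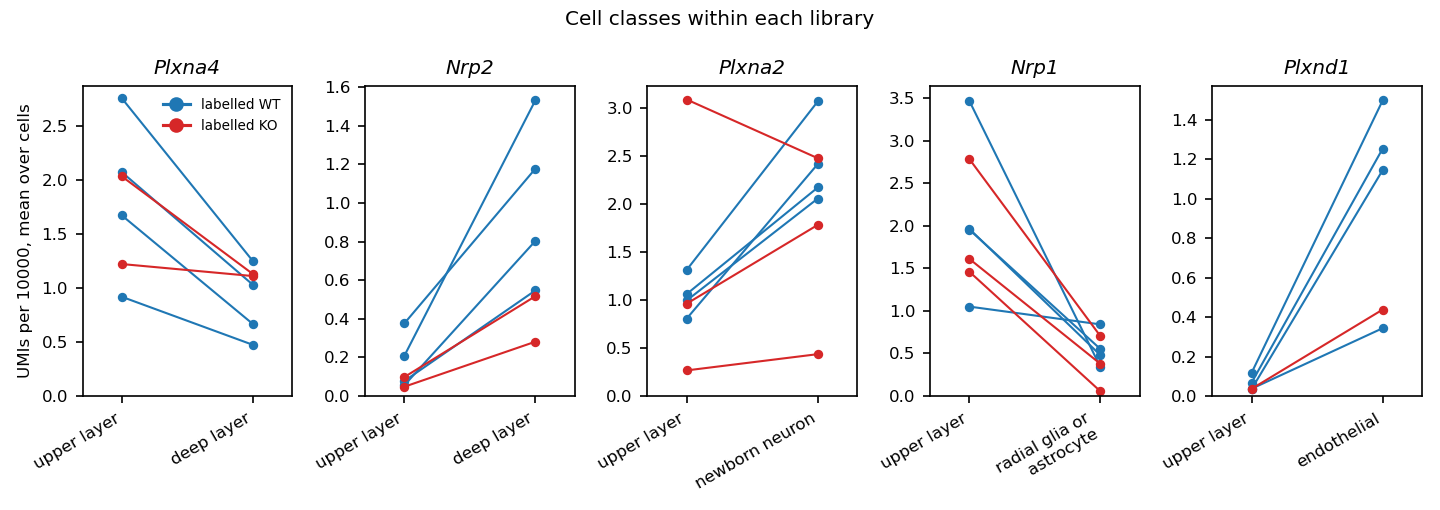
Class means of 5 genes in UMIs per 10000, with each line joining the 2 classes of 1 library, coloured by its genotype label. Plxna4 fell and Nrp2 rose from upper to deep layer neurons in 6 of 6 libraries, Plxna2 was higher in newborn than in upper layer neurons in 6 of 7, Nrp1 was lower in radial glia or astrocytes in 7 of 7, and Plxnd1 was higher in endothelial cells in 5 of 5.

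Against newborn neurons, 1 of 10 members passed, beside 2.59% of all genes: Plxna2 was lower in upper layer neurons in 6 of 7 libraries (1.21 ± 0.886 against 2.06 ± 0.820 UMIs per 10000, SD, n = 7; log2 difference −0.49 ± 0.12 SE, limma adjusted p = 0.0332). KO1 was the exception, at 3.08 in 26 upper layer and 2.47 in 41 newborn neurons. The call was lost when any of WT2 to WT5 or KO4 was left out, with the stricter gate and with thinned cells. Without KO5, Nrp1 passed as well. Plxna4 did not pass (1.94 ± 0.740 against 1.71 ± 0.911, adjusted p = 0.579).

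Against interneurons, which enter the cortex by tangential migration, 2 of 10 members were higher in upper layer neurons, beside 1.89% of genes called, 0.943% as higher: Plxna4 (1.94 ± 0.740 against 0.596 ± 0.408, n = 7; 0.88 ± 0.14 SE on the log2 scale, limma adjusted p = 0.000949) and Nrp1 (2.05 ± 0.829 against 1.01 ± 0.322; 0.57 ± 0.13, adjusted p = 0.0214). Each was higher in 6 of 7 libraries, with KO5 the exception, where Plxna4 measured 1.22 in upper layer neurons and 1.38 in 19 interneurons, and Nrp1 1.46 and 1.53. Nrp1 did not pass without WT2 (adjusted p = 0.11), WT3 (adjusted p = 0.11) or WT4 (adjusted p = 0.0899). Plxna2 measured 1.21 ± 0.886 against 1.40 ± 0.257 and did not pass (−0.19 ± 0.13, adjusted p = 0.586).

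Radial glia or astrocytes differed from upper layer neurons in many genes (28.1% called, 11.3% as higher in neurons), and 3 of 10 members were among them, all higher in neurons: Nrp1 (2.05 ± 0.829 against 0.481 ± 0.257, n = 7; 1.02 ± 0.13 SE on the log2 scale, limma adjusted p = 2.8e-06), Plxna4 (1.94 ± 0.740 against 0.357 ± 0.195; 1.09 ± 0.13, adjusted p = 1.06e-06) and Plxna2 (1.21 ± 0.886 against 0.614 ± 0.380; 0.40 ± 0.10, adjusted p = 0.00407). Each was higher in 7 of 7 libraries, as were 8.67% of all genes. Plxnb1 (0.197 ± 0.0969 against 0.400 ± 0.220) and Plxnb2 (0.203 ± 0.0937 against 0.371 ± 0.170) were higher in radial glia or astrocytes in 6 and 5 of 7 libraries without passing (adjusted p = 0.0734 and 0.0869). edgeR called 9 of the 10 members, among them Plxnb1 and Plxnb2.

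Endothelial cells were set against upper layer neurons in 5 libraries that held 10 to 31 endothelial cells, and 4 of 10 members passed, beside 25.1% of genes. Plxnd1, the receptor of endothelial Sema3e signalling, was higher in endothelial cells of 5 of 5 libraries, at 1.50, 1.15, 1.25 and 0.344 in WT2 to WT5 and 0.438 in KO4, against 0.118, 0.0354, 0.0680, 0.0368 and 0.0362 in neurons (log2 difference 0.83 ± 0.14 SE, limma adjusted p = 0.000132, a 15.9-fold ratio of means). The lowest endothelial value exceeded the highest neuronal value. Nrp1 was higher in endothelial cells (3.23 ± 0.814 against 2.01 ± 0.898; 0.51 ± 0.17, adjusted p = 0.032), and Plxna4 and Plxna2 were lower (0.249 ± 0.196 against 1.89 ± 0.670; −1.19 ± 0.17, adjusted p = 1.29e-05; and 0.430 ± 0.159 against 1.03 ± 0.185; −0.51 ± 0.15, adjusted p = 0.0151). The Nrp1 call was lost without WT4 (adjusted p = 0.0808), without WT5 (0.32, adjusted p = 0.14) and by edgeR (adjusted p = 0.262) among others, and was kept in 4 of 13 alternatives in all. The Plxna2 call was lost without WT3 (adjusted p = 0.0597) or WT4 (adjusted p = 0.0669) and kept in 10 of 13.

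The study concerns how Tcf4 acts in the wiring between the hemispheres, and the receptors were compared between genotypes within 5 classes. A gene was tested where 2 or more libraries reached 0.1 UMIs per 10000, which admitted 7 members in upper layer neurons, 9 in deep layer neurons, 8 in newborn neurons, 9 in radial glia or astrocytes and 10 in interneurons. A member that is low in 1 genotype can pass this filter through the other.

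In deep layer neurons, which include the corticofugal neurons, 1 of 9 members tested passed, Nrp1, where 1.14% of all genes did. Nrp1 measured 5.63, 4.36 and 3.16 UMIs per 10000 in WT2, WT3 and WT4 (54, 39 and 471 cells) against 1.68 in KO4 and 1.11 in KO5 (129 and 36 cells). Both KO libraries lay under all 3 WT libraries, and the ratio of the means was 0.317 (log2 difference −1.16 ± 0.18 SE, limma adjusted p = 4.07e-07). The share of cells with an Nrp1 UMI was 61.1%, 71.8% and 43.3% against 35.7% and 19.4%, and after thinning to 1800 UMIs 51.9%, 41.0% and 28.5% against 21.7% and 16.7%. Both shares kept the WT libraries above the KO libraries. On thinned cells the log2 difference was −1.08 (adjusted p = 0.000174), on cells under 4000 UMIs −1.03 (adjusted p = 0.00182), by edgeR −1.34 (adjusted p = 0.00119) and by DESeq2 −1.38 (adjusted p = 0.0388). A class mean does not tell fewer cells with the RNA from less RNA per cell.

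The libraries outside this comparison ranged widely. WT5, labelled wildtype, measured 1.30 in 41 deep layer neurons, inside the KO range. Under the 10-cell minimum, KO1 measured 10.7 in 7 cells, above all WT libraries compared, KO2 0.460 in 3 cells and WT1 18.1 in 1 cell. With WT5 added the log2 difference was −0.85 and the call was lost (adjusted p = 0.765). It was also lost without KO5 (−0.98, adjusted p = 0.0634), under a gate with a 100-fold lead that left 4 libraries (adjusted p = 0.663), and with no filter on low genes (adjusted p = 0.768). On WT4, WT5, KO4 and KO5 alone the difference was −0.38 (adjusted p = 0.998). Of 22 alternatives 15 kept the call, and without the haemoglobin limit the difference was −1.27 (adjusted p = 6.26e-08). In the same gated cells, RNA of other classes was higher in KO4 and KO5: the summed level of the 5 erythroid markers was 23.6 to 66.5 UMIs per 10000 against 5.20 to 8.14 in WT2 to WT4 (4 of 5 higher in both KO libraries), of the 11 radial glia or astrocyte markers 15.4 to 15.8 against 9.19 to 12.3 (4 of 11), and of the 7 upper layer markers 12 to 13.3 against 7.34 to 9.92 (2 of 7). The 11 deep layer markers themselves summed to 19.3 to 20.5 against 17.0 to 23.1. The part of these RNAs in the Nrp1 difference was not tested.

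Nrp2 and Plxna2 were lower in both KO libraries of deep layer neurons than in all 3 WT libraries, as 18.9% of all genes were, and neither passed. Nrp2 measured 0.281 and 0.517 against 0.803, 0.547 and 1.53 (−0.46 ± 0.17 SE, limma adjusted p = 0.201), with KO5 just under WT3, and edgeR called it (−1.68, adjusted p = 0.0468). Plxna2 measured 1.14 and 0.867 against 1.77, 1.38 and 2.32 (−0.49 ± 0.18, adjusted p = 0.21). Plxna3, on the X chromosome, measured 0.299 in KO4 and 1.20 in KO5 against 0.239, 0.338 and 0.325 (0.38 ± 0.15, adjusted p = 0.259). Only KO5 stood apart, with 10 UMIs in 36 cells. KO5 was also the only library with no Xist UMI (Xist is the RNA of the silenced X chromosome of female cells). Over all cells kept, however, the Plxna3 level of KO5 was 0.251, which lies between those of WT3 (0.176) and WT4 (0.303). A link between embryo sex and the Plxna3 value of KO5 was not tested. Within deep layer neurons, Plxna4 measured 1.13 and 1.11 against 1.03, 0.666 and 1.25 (0.11 ± 0.18, adjusted p = 0.863).

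**Figure D3:**
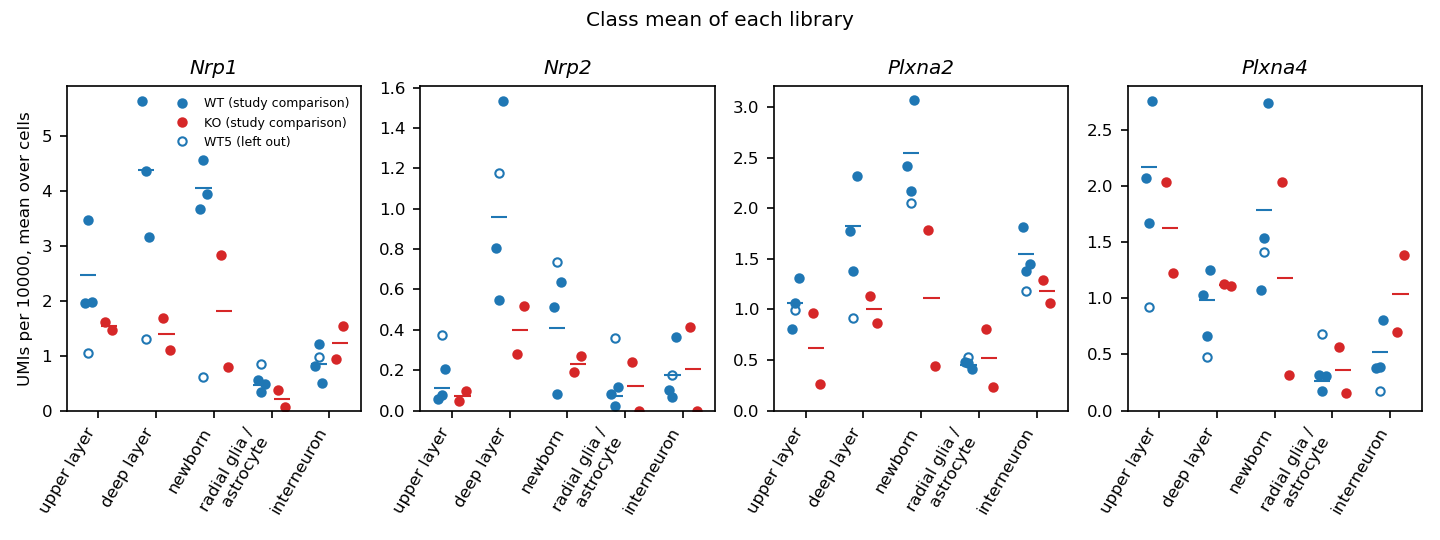
Levels of Nrp1, Nrp2, Plxna2 and Plxna4 in UMIs per 10000 in 5 cell classes, with 1 point per library and a bar at the mean of the libraries compared; open circles mark WT5, which did not enter the comparison. In deep layer neurons the 3 WT libraries of Nrp1 (3.16 to 5.63) lie above both KO libraries (1.11 and 1.68), and WT5 lies at 1.30.

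Promoter windows of Nrp1, Nrp2 and Plxna2 are shown because they are the members that were lower in both KO libraries of deep layer neurons. The genes lie at chr8:128358604-128503363 (Nrp1), chr1:62703285-62818695 (Nrp2) and chr1:194618218-194816869 (Plxna2), all on the + strand of GRCm38. RefSeq promoters of 300 bases (250 before to 50 after the start, GRCm38.p6) were found for 8 of the 10 members, not for Plxna1 or Plxna4. Capitals mark E-boxes, searched as CANNTG, a motif that reads the same on both strands, which is why 1 search covers both. The windows printed are chr8:128358823-128359122, chr1:62703067-62703366 and chr1:194619579-194619878. They are placed by the RefSeq starts: the window of Nrp2 spans the first base of the gene as given above, and those of Nrp1 and Plxna2 lie downstream of it, inside the gene.
Nrp1: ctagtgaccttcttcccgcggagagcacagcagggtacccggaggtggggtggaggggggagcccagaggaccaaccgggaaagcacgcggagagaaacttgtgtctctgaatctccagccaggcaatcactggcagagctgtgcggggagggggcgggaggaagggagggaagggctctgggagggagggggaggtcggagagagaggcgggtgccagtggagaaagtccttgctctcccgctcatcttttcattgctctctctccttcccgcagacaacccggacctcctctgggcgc
Nrp2: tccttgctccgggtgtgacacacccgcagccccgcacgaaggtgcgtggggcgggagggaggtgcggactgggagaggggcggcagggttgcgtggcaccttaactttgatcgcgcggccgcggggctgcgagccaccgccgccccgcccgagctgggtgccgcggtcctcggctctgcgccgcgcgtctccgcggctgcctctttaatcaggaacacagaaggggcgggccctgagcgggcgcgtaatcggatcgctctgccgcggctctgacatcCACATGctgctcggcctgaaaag
Plxna2: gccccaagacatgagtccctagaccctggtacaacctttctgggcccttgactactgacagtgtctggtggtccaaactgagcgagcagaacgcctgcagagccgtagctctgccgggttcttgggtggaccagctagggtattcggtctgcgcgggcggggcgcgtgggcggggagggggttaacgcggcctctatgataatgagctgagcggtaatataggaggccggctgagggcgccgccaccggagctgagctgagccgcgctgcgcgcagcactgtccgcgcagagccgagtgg
The Nrp2 window held 1 match, CACATG, beginning 28 bases after the start, and the windows of Nrp1 and Plxna2 held none. Of all 32851 promoters in the table, 72.3% held at least 1 CANNTG, and 16.3% held CAGCTG, which none of the 3 windows held. A match is a description of the letters, and binding was not measured here.

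In newborn neurons none of the 8 members tested passed with limma, edgeR or DESeq2, where 0.26% of all genes passed with limma, and 2 had an unadjusted p under 0.05 (17.2% of all genes). Nrp1 measured 3.67, 4.56 and 3.94 in WT2, WT3 and WT4 against 2.84 in KO4 and 0.793 in KO5 (−0.94 ± 0.26 SE, limma adjusted p = 0.13), and Plxna2 2.41, 2.17 and 3.07 against 1.78 and 0.435 (−0.82 ± 0.24, adjusted p = 0.161). The KO libraries compared lay below WT2, WT3 and WT4 for both and for Plxnb1, as for 26.1% of all genes. KO5 contributed 11 cells, in which Nrp1 rests on 2 UMIs and Plxna2 on 1. Without KO4, when KO5 alone stood for the genotype, 6 members passed, and without WT4 Nrp1 passed (adjusted p = 0.0243). Under the gate with a 100-fold lead the Nrp1 difference was 0.10 (adjusted p = 0.856). WT5 measured 0.613 for Nrp1 and 2.05 for Plxna2 in 18 cells. KO1 measured 4.58 for Nrp1 in 41 cells, above WT2, WT3 and WT4. Plxna4 measured 2.03 and 0.318 against 1.07, 1.54 and 2.74 (−0.43 ± 0.30, adjusted p = 0.435), with KO4 inside and KO5 below the WT range.

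In upper layer neurons, which hold most callosal neurons, none of the 7 members tested passed, by limma, edgeR or DESeq2, where limma called 0.521% of all genes, and 2 had an unadjusted p under 0.05 (14.6% of all genes). Nrp1 measured 1.96, 3.48 and 1.97 in WT2, WT3 and WT4 against 1.61 in KO4 and 1.46 in KO5, both lower than all WT libraries compared (−0.42 ± 0.18 SE, limma adjusted p = 0.317). Outside the comparison the order was reversed: WT5 measured 1.05 in 84 cells, below both KO libraries, and KO1 2.79 in 26 cells, above WT2 and WT4. Plxna2 measured 0.806, 1.06 and 1.31 against 0.961 and 0.266, with KO4 inside the WT range (−0.38 ± 0.17, adjusted p = 0.339). Plxna4, the gene with its highest level in this class, measured 2.07, 1.67 and 2.76 against 2.03 and 1.22 (−0.27 ± 0.18, adjusted p = 0.466). The groups overlapped. Plxnb2 measured 0.188 and 0.229 against 0.246, 0.246 and 0.282, without overlap but by less than its error (−0.06 ± 0.07, adjusted p = 0.711); 22.6% of all genes were lower without overlap. Leaving out KO4 brought 2 members past the threshold, Plxna2 and Plxnb1. On simulated counts for this comparison, limma called 11.2% of genes changed 2-fold and 53.1% of those changed 4-fold, so a 2-fold change of a receptor would usually not be detected.

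**Figure D4:**
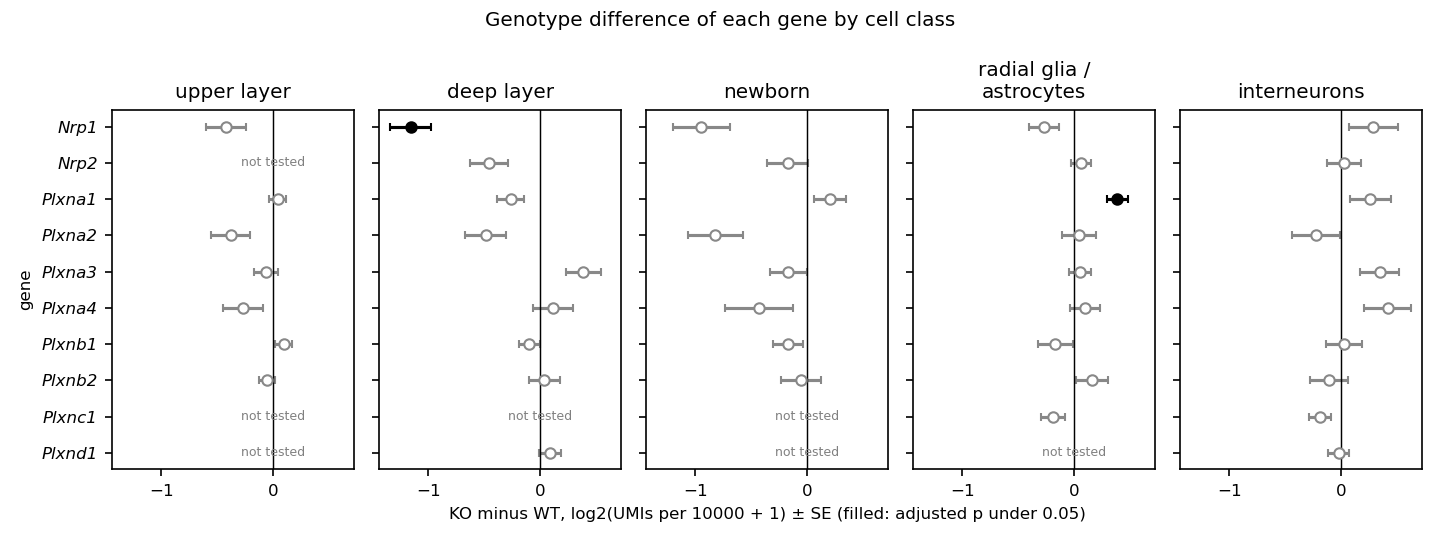
KO minus WT difference of each gene on the log2(UMIs per 10000 + 1) scale, with bars of 1 SE from limma, by cell class; filled points have an adjusted p under 0.05. Nrp1 in deep layer neurons (−1.16) and Plxna1 in radial glia or astrocytes (0.38) are filled.

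In radial glia or astrocytes 1 of 9 members passed, beside 1.52% of all genes. Plxna1 measured 0.0284, 0.0561 and 0.0892 in WT2, WT3 and WT4 against 0.356 in KO4 and 0.402 in KO5, without overlap (12% of all genes were higher without overlap), and the log2 difference was 0.38 ± 0.09 SE (limma adjusted p = 0.0451). All 3 WT values were under the filter limit of 0.1, so Plxna1 entered the test only through the KO libraries, where it was high, and the call is no independent support for a difference. These values rest on 1, 2 and 11 UMIs in the WT libraries and on 8 and 3 in the KO libraries. WT5 gave no UMI in 20 cells, KO1 measured 0.232 in 46 cells and KO2 0.184 in 16 cells. The call was lost in 14 of 20 alternatives, among them edgeR (adjusted p = 0.18), DESeq2 (adjusted p = 0.763), thinned cells (adjusted p = 0.185) and leaving out WT2 (adjusted p = 0.22), WT3 (adjusted p = 0.194) or WT4 (adjusted p = 0.118). The 11 markers of the class itself summed to 264 to 268 UMIs per 10000 in the KO libraries against 388 to 435 in WT, and the 7 upper layer markers to 7.16 to 8.18 against 4.12 to 5.12. Their part in the Plxna1 difference was not tested. Nrp1 measured 0.380 and 0.0567 against 0.554, 0.344 and 0.482 (−0.27 ± 0.14, adjusted p = 0.345), and Plxnb1, highest in this class, 0.557 and 0 against 0.382, 0.307 and 0.534 (−0.17 ± 0.15, adjusted p = 0.627).

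In interneurons none of the 10 members passed by limma, edgeR or DESeq2, none had an unadjusted p under 0.05 (13.5% of all genes did), and limma called 0.526% of all genes. Nrp1 was the reverse of its order in projection neurons, at 0.938 and 1.53 in KO4 and KO5 against 0.817, 1.20 and 0.502 (0.28 ± 0.22 SE, limma adjusted p = 0.568), with overlapping groups. Plxna4 measured 0.695 and 1.38 against 0.377, 0.384 and 0.808 (0.41 ± 0.21, adjusted p = 0.381). Plxna2 was lower in both KO libraries (1.29 and 1.06 against 1.81, 1.38 and 1.44), as was Plxnc1, which gave no UMI in 53 and 19 KO cells, beside 19.4% of all genes. Neither difference passed (−0.22 ± 0.21, adjusted p = 0.663, and −0.19 ± 0.10, adjusted p = 0.384).

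Whether the genotype difference itself differed between classes was tested for upper layer neurons against radial glia or astrocytes. None of the 9 members passed, beside 1.04% of all genes, and 3 had an unadjusted p under 0.05 (14.4% of all genes): Plxna1 (−0.35 ± 0.11 SE, limma adjusted p = 0.189), Plxna2 (−0.42 ± 0.17, adjusted p = 0.277) and Plxna4 (−0.37 ± 0.17, adjusted p = 0.33). No such test was made for the Nrp1 difference between deep layer and other neurons, so it was not shown to be particular to deep layer neurons.

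In endothelial cells too few KO libraries were available for a genotype test, since KO5 held 5 cells. Plxnd1 measured 0.438 in the 31 endothelial cells of KO4 and 0.344 in 12 cells of WT5, below 1.15 to 1.50 in WT2, WT3 and WT4. Nrp1 in these cells measured 2.22 in KO4 and 4.01 in WT5 against 2.68, 4.07 and 3.14. Over all cells kept, classes mixed, Nrp1 measured 2.60, 3.37 and 2.02 in WT2, WT3 and WT4, 1.27 in KO4, 0.935 in KO5, 0.874 in WT5, 0.836 in WT1, 3.07 in KO1 and 1.53 in KO2. WT1 and WT5 were the lowest, and KO1 was above WT2 and WT4. These values are a description over libraries that also differ in cell classes and haemoglobin RNA.

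The neuropilins and A plexins act as a complex, and their joint detection was counted in cells thinned to 1800 UMIs. In WT4, 56.6% of upper layer neurons with an Nrp1 UMI also held a UMI of Plxna1, Plxna2, Plxna3 or Plxna4, against 53.8% of those without. In newborn neurons of WT4 the shares were 67.3% and 60.1%, and in deep layer neurons 47.8% and 51.9%. Over WT2, WT3, WT4, KO4 and KO5 the share was higher in cells with Nrp1 in 4 of 5 libraries for upper layer neurons, 4 of 5 for newborn neurons and 0 of 5 for deep layer neurons. KO5 counts among these with only 8, 2 and 6 cells that held Nrp1 in upper layer, newborn and deep layer neurons. In sparse counts these shares are descriptions.

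The other genes of the pathway, on lists of 20 semaphorins, 4 other ligands, 14 co-receptors or partners and 29 effectors, were tested between genotypes in the same fits. None of the semaphorins tested fell in any of the 5 classes, and 1 of 12 rose in deep layer neurons (1.14% of all genes called), Sema4b, a transmembrane semaphorin (0.853 ± 0.246 in KO against 0.188 ± 0.134 in WT; 0.64 ± 0.15 SE, limma adjusted p = 0.00496). Of the effectors 2 of 25 rose in upper layer neurons (0.521% of all genes called), 2 of 25 in deep layer neurons (1.14%), 1 of 23 in newborn neurons (0.26%), 1 of 24 in radial glia or astrocytes (1.52%) and 1 of 24 in interneurons (0.526%). Dpysl2 (CRMP2, which mediates growth cone collapse downstream of Sema3a) rose in all 5 classes, for instance to 22.8 ± 2.84 from 10.7 ± 1.31 in deep layer neurons (1.02 ± 0.18, adjusted p = 1.2e-05) and to 24.1 ± 1.08 from 11.7 ± 0.804 in upper layer neurons (0.98 ± 0.14, adjusted p = 0.00983). WT5 and KO1, whose Tcf4 went against their labels, did not enter these tests. In upper layer neurons of WT2 to WT5 and KO4, Dpysl2 measured 17.8 ± 8.46 (SD, n = 5). With KO1 and KO5 as well it measured 17.2 ± 8.19 (n = 7). These means put Dpysl2 of WT5 above both KO libraries compared, and that of KO1 below WT2, WT3 and WT4. In upper layer neurons the rise therefore did not follow the labels of WT5 and KO1. Rhoa, a GTPase of the cytoskeleton, rose in upper (0.64 ± 0.12, adjusted p = 0.0457) and deep layer neurons (0.72 ± 0.18, adjusted p = 0.0126). None of the co-receptors, partners or other ligands tested passed. The median log2 difference of the effectors was −0.02 in upper and −0.05 in deep layer neurons, beside −0.04 and −0.04 over all genes tested. The erythroid and other-class RNA that was higher in these KO cells moves with these differences too, and its part was not tested.

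Ligands and partners were also compared between classes. Sema3c, a secreted ligand of neuropilins, was lower in upper layer than in newborn neurons (0.444 against 2.01 UMIs per 10000, n = 7; −1.02 ± 0.13 SE, limma adjusted p = 0.000176), as were Sema5a and Sema6d, 3 of 14 semaphorins tested (2.59% of all genes were called). Sema6a, a ligand of Plxna2 and Plxna4, was lower in upper layer neurons than in radial glia or astrocytes (0.115 against 0.763; −0.64 ± 0.09, adjusted p = 1.2e-05), a comparison in which 4 of 15 semaphorins were higher and 5 lower in the neurons, where 28.1% of all genes were called. In endothelial cells the VEGF receptors Flt1 and Kdr, partners of Nrp1, were higher than in upper layer neurons (8.30 against 0.0311 and 6.49 against 0.0148, n = 5; 2.99 ± 0.24, adjusted p = 1.45e-07, and 2.73 ± 0.22, adjusted p = 6.79e-08), and so were Sema6a and Sema6d. Sema3a and Sema3c were lower there. In this comparison 2 of 11 semaphorins were higher and 2 lower, and 4 of 10 co-receptors or partners were higher and 3 lower. Of all genes 25.1% were called. Cntn2 (TAG-1, an axonal adhesion molecule that partners with L1cam) was higher in upper layer neurons than in deep layer neurons (2.01 against 1.16; 0.50 ± 0.09, adjusted p = 0.0027), as Plxna4 was, and Chl1 was lower (1.58 against 2.62; −0.45 ± 0.09, adjusted p = 0.00923), as Nrp2 was.

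The genes whose class means were most like those of each member, by Pearson correlation of log2 means over the 13 classes of WT2, WT3 and WT4 among 10315 genes, are given as a description, since the points share libraries and depth. For Nrp1 these were Arrdc1 (r = 0.922) and Rras2 (0.879), for Nrp2 Dip2b (0.815) and mt-Nd3 (0.803), for Plxna2 C530008M17Rik (0.932) and Dcx (0.925), a microtubule protein of migrating neurons, and for Plxna4 Nuak1 (0.903) and Aldh1l2 (0.898). Plxnd1 was most like Steap3 (0.960) and Fam43a (0.956), both highest in endothelial cells. Plxnb1 was most like Dpp8 (0.895) and Cnn3 (0.888), Plxnb2 like Dcxr (0.928) and Gm9843 (0.920), and Plxnc1 like Cbr4 (0.903) and Gkap1 (0.873). Plxna1 was most like Large (0.891) and Camkv (0.860), and Plxna3, at low levels throughout, like Zbtb8a (0.896) and Trmt1 (0.885). Mural cells and microglia enter these correlations from WT4 alone. Over the 13 classes Plxnb2, Dcxr, Gm9843, Dip2b and Aldh1l2 were highest in microglia, and Plxna3, Zbtb8a and mt-Nd3 in mural cells. Their likeness leans on those classes of WT4. Plxnb3, the plexin outside the set, was listed in 2 libraries with 5 UMIs.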

How the data were processed

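Single cell RNA libraries (10x 3′ v2) of E18.5 neocortices were aligned by the authors with Cell Ranger to mm10 (GRCm38) and filtered with Seurat 2.3.4 under R 3.6.0, per the labels and the study's methods. The authors deposited WT4, WT5, KO4 and KO5 as UMI counts per gene and cell, and WT1, WT2, WT3, KO1 and KO2 as natural log values of 1 plus UMIs per 10000. Whole UMIs came back from 100% of these log values within 1e-06. Libraries held 348105 to 29767293 UMIs, and fewer UMIs or cells mean wider counting error.

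Cells with 1000 to 5000 genes, 1800 to 10000 UMIs, under 6% mitochondrial and at most 1% haemoglobin UMIs were kept. No doublet caller was run, and cells of the top 5% by UMIs were left out as an alternative. A cell was given the class whose marker profile (seeds from WT2 to WT4) was at least 10-fold likelier than the next class and than the library average. Near that limit, with a lead under 30-fold, lay 403 of 2384 upper layer, 270 of 781 deep layer, 282 of 1005 newborn neurons and 4 of 615 radial glia or astrocytes, and 601, 514, 416 and 10 further cells with a lead over 3-fold were not gated. For each library with at least 10 cells of a class, values were the mean over cells of UMIs per 10000. The main test was limma 3.58.1 (R 4.3.3, trend, robust) on log2(value + 1) for genes of at least 0.1 in 2 or more libraries, Benjamini-Hochberg adjusted, with a threshold of 0.05. edgeR 4.0.16 and DESeq2 1.42.0 on summed UMIs were alternatives, with other scalings, filters, gates and left-out libraries. Shares carry counting error only. Scripts were tested on simulated counts. Positions come from a GRCm38 annotation. All 10 members were named by rule. The members, lists and tests were chosen with earlier results of these data known.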

Additional observations from a re-analysis of the deposited data

Results flagged for a closer look

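Over the 10 genes, 120 groups of 4 or more libraries were tested for 1 library standing far from the others (Dixon's criterion at 95%), and 8 were found, where chance alone gives about 1 in 20. In endothelial cells of the WT libraries, Plxna1 measured 0.0926 UMIs per 10000 in WT4 and 0 in the other libraries, Plxnc1 0.170 in WT4 and 0 in the others, Plxna3 1.11 in WT5 against 0 to 0.128, and Nrp2 0 in WT3 against 0.405 to 0.481. Each of these rests on 0 to 3 UMIs in the library that stood apart. Plxnc1 in striatal neurons measured 0.187 in WT4, which held 589 of these cells, and 0 in the others. In radial glia or astrocytes of the KO libraries, Plxnb2 measured 0.655 in KO4 against 0.330 to 0.382, and Plxnd1 0.0160 in KO4, from 1 UMI, against 0. Over all cells kept, Plxnb1 measured 0.398 in WT1, with 126 cells, against 0.149 to 0.217 in the other WT libraries.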

How the results depend on the processing

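Of 537 recomputed values of single genes, 447 kept their direction and side of the threshold, 49 lost a call, 35 gained one and 6 changed sign; of 195 recomputed counts and Tcf4 differences, 138 stayed the same by the 1.5-fold limit and 56 moved. The Tcf4 difference became 0.90 with all 9 libraries as labelled and ran from −4.74 to −3.05 with 1 library left out. Sign changes were Plxna2 in upper layer neurons with all libraries (0.0887), Nrp1 in upper layer neurons on the libraries of shared number (0.0407 with the block and 0.0407 without it), Nrp1 in newborn neurons (0.10) and Plxna3 in deep layer neurons (−0.13) under the gate with a 100-fold lead, and Plxna3 there without KO5 (from −0.0011 to 0.76 with 1 library left out). The causes were not tested.

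Members called in deep layer neurons (1 in the report) numbered 0 with no filter, with WT5 added, with all libraries and with the 100-fold lead, and 2 with edgeR (either scaling), the stricter gate and gate seeds from all 5 libraries. In radial glia or astrocytes (1) they numbered 0 with pseudocount 0.1, no filter, summed UMIs, edgeR, DESeq2, thinned cells, WT5 added or all libraries. In newborn neurons (0) they numbered 1 with seeds from all 5 libraries, and in interneurons (0) 1 with the 100-fold lead, Plxna3. With no filter, upper layer neurons had 0 calls against deep layer neurons (2), newborn neurons (1) and interneurons (2). With edgeR they had 4, 5 and 9 against deep layer neurons, newborn neurons and radial glia or astrocytes (2, 1 and 3), with WT2 to WT4 alone 4, 4 and 6, with the stricter gate 1 against deep layer and 0 against newborn neurons, and with thinned cells 0 against newborn neurons.

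With 1 library left out the calls ran from 0 to 2 in upper layer, deep layer and radial glia genotype comparisons, from 0 to 6 in newborn neurons, from 0 to 3 in the test of upper layer against radial glia change, from 0 to 2 against newborn neurons, from 1 to 2 against interneurons and from 2 to 5 for endothelial cells. Nrp1 in deep layer neurons ran from −1.33 to −0.98.

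Replicate numbers were not taken to pair the libraries: over all cells kept and 1159 genes the deviations of same-numbered WT and KO libraries correlated at −0.0084 (number 1), 0.325, 0.361 and 0.497, and WT5 was closer to KO4 (0.533). In radial glia or astrocytes, where WT1 had too few cells, the 3 same-numbered pairs correlated at 0.236, 0.282 and 0.326, each the highest for its KO library, a hint from the data and not from the design. With the replicate block on shared numbers 0 members were called in deep layer neurons and 0 in radial glia or astrocytes. On the same libraries without the block these were 0 and 0 as well, and the Nrp1 difference in deep layer neurons was −0.38 in both fits (adjusted p = 0.97 and 0.998). Alternatives by the 100-fold lead, the seeds, the top 5% of cells, WT2 to WT4 alone and the unblocked shared numbers were chosen after seeing the data. On simulated counts limma called 4.04% of 2-fold and 47.4% of 4-fold changes in deep layer neurons, and 6.25% and 93.8% among genes of at least 1 UMI per 10000.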
